A study of Mus musculus with 5 samples.

Results

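The NF-κB family and its feedback genes were examined in IL-2-activated NKC as 8 genes: the subunits Nfkb1, Nfkb2, Rel, Rela and Relb, the inhibitors Nfkbia and Nfkbie, and Tnfaip3. They are 8 of the 22350 protein-coding genes of the GENCODE M1 annotation of the mouse genome (mm9) on the autosomes and X chromosome. Runx3 and H3K4me1 peaks were assigned to a gene when they overlapped the gene or the 20 kb on either side of it. By this rule the genes took 15 of 11676 Runx3 peaks and 54 of 34204 H3K4me1 peaks. The cells were splenic NK cells of ICR mice, taken by negative selection and cultured for 7 days in 1000 units/ml of human recombinant IL-2, for which the labels name no mutation of Runx3. The labels call all cultured cells NKp46+, the study's methods nearly all, and the methods also name a sort for DX5+ cells that the labels do not. ChIP-seq was done with an in-house polyclonal anti-Runx3 antibody in 2 libraries, a monoclonal anti-H3K4me1 antibody in 1 library and non-immune rabbit serum (NIS) as control in 2 libraries. All libraries came from the activated condition. The Runx3 libraries were joined before peaks were called, and the lists hold positions without heights, so no value below has a replicate error, no library could be compared with another, and depth, which the study's methods state, cannot be computed from the files.

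NF-κB is a family of dimers built from Rel-homology subunits. In resting cells the dimers are held in the cytoplasm by IκB proteins such as IκBα and IκBε, which are degraded when receptors activate the IκB kinase, and the freed dimers enter the nucleus and bind κB sites. Nfkbia, Nfkbie and Tnfaip3 are themselves known NF-κB targets, so their products close feedback loops, and in NK cells the pathway serves cytokine production and survival. Runx3 is a Runt-domain transcription factor of cytotoxic lymphocytes, and H3K4me1 is a histone mark found at enhancers. The markers of NK cells were marked in these lists: each of Ncr1, Klrb1c, Itga2, Eomes and Prf1 had Runx3 and H3K4me1 peaks. Runx3 peaks were also found at 3 of 4 T cell markers, 2 of 4 B cell markers and 1 of 4 myeloid markers. For H3K4me1 these counts were 3 of 4, 3 of 4 and 2 of 4. Over all protein-coding genes, 41.1% had a Runx3 peak and 51.1% an H3K4me1 peak. The markers Cd8a, Ms4a1, Lyz2 and Cebpa had no peak of either kind. A peak is not a measure of expression, so these counts do not give the purity of the cells.

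The sequences of the Runx3 peaks at these genes were read from the mm9 genome. Those shown are the motif-bearing stretches near the centres of the peaks at the gene starts, and of 3 Nfkb1 peaks with multiple matches near their centres. The Tnfaip3 RUNX stretch was added separately, and its match lies 286.5 bp from the centre of the peak. Each runs 5′ to 3′ in the direction of its gene. Capitals mark matches to the RUNX motif (TGNGGN with T or C at each N, on either strand), to the AP-1 motif (TGANTCA with C or G at N, a palindrome counted once) or to the κB consensus on either strand. A match is a description of the letters and not evidence of binding.
Nfkb1 intron, RUNX (chr3:135325511-135325728, minus strand): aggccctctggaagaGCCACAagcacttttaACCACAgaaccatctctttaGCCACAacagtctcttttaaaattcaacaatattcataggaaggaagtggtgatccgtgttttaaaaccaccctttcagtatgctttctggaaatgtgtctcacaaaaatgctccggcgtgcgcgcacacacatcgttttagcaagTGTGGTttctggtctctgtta
Nfkb1 intron across an H3K4me1 edge, RUNX (chr3:135265769-135265933, minus strand): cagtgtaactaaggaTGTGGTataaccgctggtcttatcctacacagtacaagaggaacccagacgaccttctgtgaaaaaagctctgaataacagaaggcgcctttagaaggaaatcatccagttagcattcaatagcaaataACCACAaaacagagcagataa
Nfkb1 downstream flank, AP-1 (chr3:135242519-135242598, minus strand): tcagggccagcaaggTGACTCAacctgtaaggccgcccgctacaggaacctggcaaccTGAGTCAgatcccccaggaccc
Nfkb2 upstream, RUNX (chr19:46378739-46378814, plus strand): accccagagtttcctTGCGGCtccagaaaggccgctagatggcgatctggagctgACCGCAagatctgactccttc
Rel upstream, RUNX then κB (chr11:23671036-23671186, minus strand): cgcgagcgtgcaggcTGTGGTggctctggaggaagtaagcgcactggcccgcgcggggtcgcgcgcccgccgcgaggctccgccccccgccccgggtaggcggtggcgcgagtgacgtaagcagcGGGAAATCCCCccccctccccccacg
Rela upstream, RUNX (chr19:5637334-5637369, plus strand): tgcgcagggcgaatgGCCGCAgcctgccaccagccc
Nfkbia intron, κB (chr12:56592764-56592968, minus strand): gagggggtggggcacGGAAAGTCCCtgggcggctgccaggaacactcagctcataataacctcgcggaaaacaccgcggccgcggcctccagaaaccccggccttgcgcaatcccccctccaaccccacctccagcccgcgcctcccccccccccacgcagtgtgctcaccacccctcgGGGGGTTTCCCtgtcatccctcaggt
Tnfaip3 start, AP-1 then κB (chr10:18735217-18735353, minus strand): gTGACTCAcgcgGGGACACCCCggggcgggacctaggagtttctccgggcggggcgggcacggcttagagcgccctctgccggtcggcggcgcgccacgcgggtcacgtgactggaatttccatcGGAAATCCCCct
Tnfaip3 first exon, untranslated, RUNX (chr10:18735009-18735038, minus strand): acgatcccgggcTGCGGCgcgcgccagtga
The first Nfkb1 stretch held 4 of that peak's 5 RUNX matches. The Nfkbia stretch held κB matches and no RUNX match, and the Tnfaip3 stretch placed κB matches at both ends.

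All 8 genes had at least 1 Runx3 peak, where 41.1% of protein-coding genes did, and all 8 had at least 1 H3K4me1 peak, where 51.1% did. Counting only peaks nearest to the gene's own start, 6 of the 8 had a Runx3 peak and 8 an H3K4me1 peak. The share of all genes by that rule was not computed. These background shares include genes that NKC may not express, since expression was not analysed here. Nfkb1 had 6 Runx3 peaks, Nfkb2 had 3 and the other 6 genes had 1 each, against a mean of 0.733 and a median of 0 over all protein-coding genes. Nfkb1 also had 31 H3K4me1 peaks, Nfkb2 had 6, Rela and Nfkbie had 5 each, Nfkbia had 4, and Rel, Relb and Tnfaip3 had 1 each, against a mean of 2.20 and a median of 1. A Runx3 peak that overlapped H3K4me1 by at least 1 bp was found at 2 of the 8 genes, Nfkb1 and Nfkb2, where 20.5% of protein-coding genes had one. The windows of the other 6 genes held both kinds of peak, with none on the same bases. The share of all genes with both kinds of peak but no overlap was not computed.

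**Figure D1:**
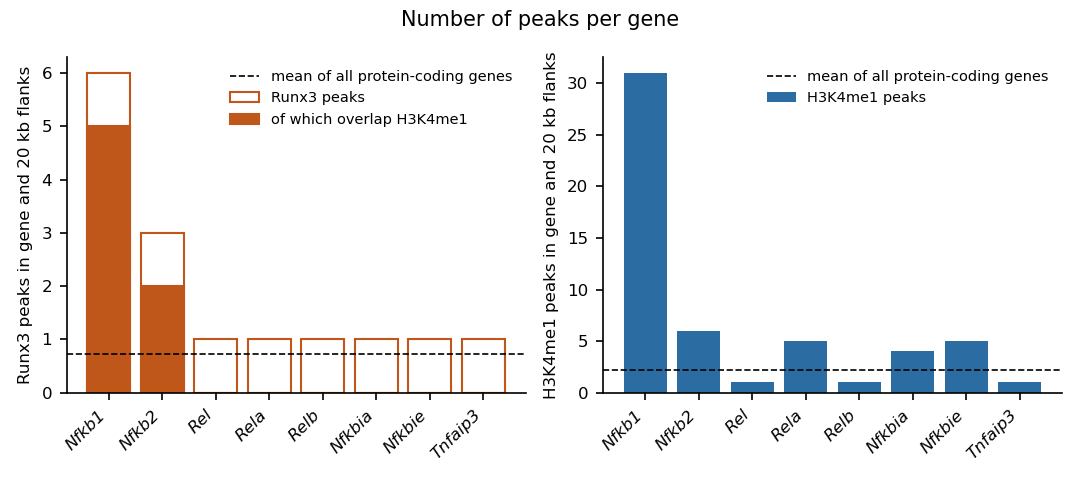
Number of Runx3 peaks (left, filled part overlapping H3K4me1) and H3K4me1 peaks (right) in each gene and its 20 kb flanks, with the mean over all protein-coding genes as a dashed line. Nfkb1 stands highest in both panels with 6 and 31 peaks, and filled bars appear at Nfkb1 and Nfkb2.

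Long genes have wide windows, so counts were also set per 100 kb. The Nfkb1 window spanned 147 kb and the Nfkbia window 43.2 kb, where the median over all genes was 55.4 kb. On this scale Nfkb2 led for Runx3 with 6.34 peaks per 100 kb, followed by Nfkb1 with 4.08, Nfkbia with 2.31, Nfkbie with 2.11, Rela with 1.97, Tnfaip3 with 1.83, Relb with 1.58 and Rel with 1.44. The mean over all protein-coding genes was 1.05 and the median 0. As many Runx3 peaks as Nfkb1 had were found at 0.729% of genes by number, but 7.15% of genes were as dense. For Nfkb2 the order turned, with 7.36% by number and 1.83% by density. For the 6 genes with 1 peak, between 16.3% (Nfkbia) and 30.9% (Rel) of all genes were as dense or denser. Nfkb1 remained first for H3K4me1, with 21.1 peaks per 100 kb and 17.6% of its window covered, against means of 3.09 peaks and 2.60% over all genes. At least as large a share of the window was covered by H3K4me1 at 2.34% of genes.

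**Figure D2:**
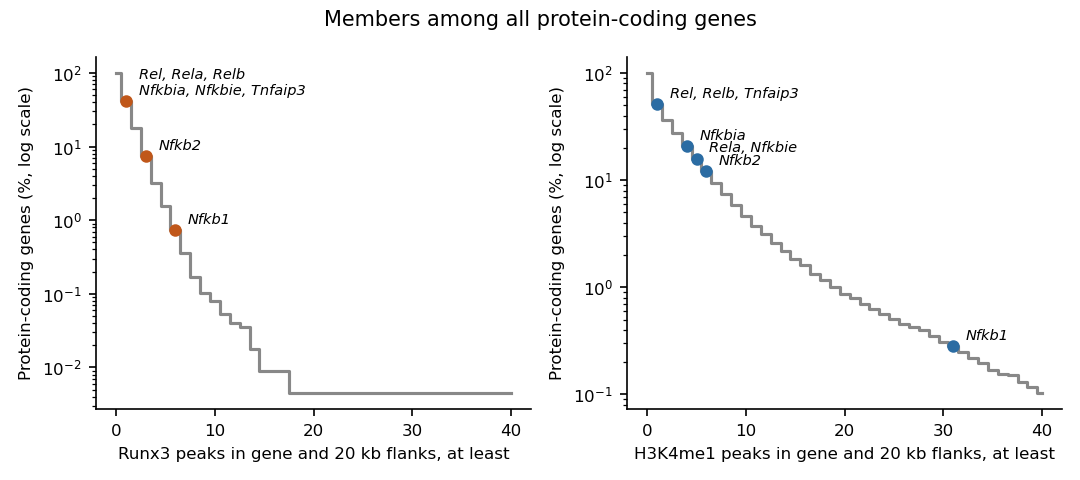
Percentage of protein-coding genes (log scale) with at least the given number of Runx3 (left) or H3K4me1 (right) peaks in the gene and its 20 kb flanks, with the NF-κB genes marked on the curve. As many peaks as Nfkb1 has are reached by 0.729% of genes for Runx3 and 0.282% for H3K4me1, without correction for window length.

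Nfkb1 encodes p105, the precursor of the p50 subunit, and lies at chr3:135247619-135354511 on the minus strand. At this locus 5 of the 6 Runx3 peaks overlapped H3K4me1. None lay at the 5′ end of the gene. The 4 peaks within the gene were intronic, centred 25560, 28870, 88672 and 97355 bp downstream of the 5′ end, so that they formed a pair in the first part of the gene and a pair near its end. The remaining peaks lay in the downstream flank at 112024 and 126037 bp, the latter inside the neighbouring gene Manba. Annotated starts of internal Nfkb1 transcripts were near 2 of the peaks: those at 88672 and 97355 bp were centred 921 and 249 bp from one. Whether these starts act as promoters in NKC was not tested.

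The overlaps at Nfkb1 were partial. They measured 35, 80, 444, 723 and 271 bp in the order of the gene, or 5.33%, 9.41%, 72.8%, 53.0% and 41.0% of the Runx3 peak. The last 3 of these Runx3 peaks each touched 2 H3K4me1 peaks, with a gap between them under the Runx3 peak. The centre of the Runx3 peak fell inside H3K4me1 in 1 case, the peak at 88672 bp. Of its RUNX matches, printed above, 1 lay inside H3K4me1 and 1 in the gap. The peak with no overlap, at 126037 bp, lay 260 bp from H3K4me1. Among the 31 H3K4me1 peaks of the locus, 20 were centred in introns, 3 in coding exons and 8 in the downstream flank, and 0 in the 20 kb upstream. They were 368 to 2281 bp wide and covered 25789 bp. Joining peaks less than 1 kb apart left 15 regions, of which 5 overlapped a Runx3 peak. The widest, chr3:135264208-135270032, spanned 5.83 kb centred in an intron, joined 4 H3K4me1 peaks, 1 of them centred in a coding exon, and held the Runx3 peak at 88672 bp. A region of 5.01 kb past the gene end held the Runx3 peak at 112024 bp.

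**Figure D3:**
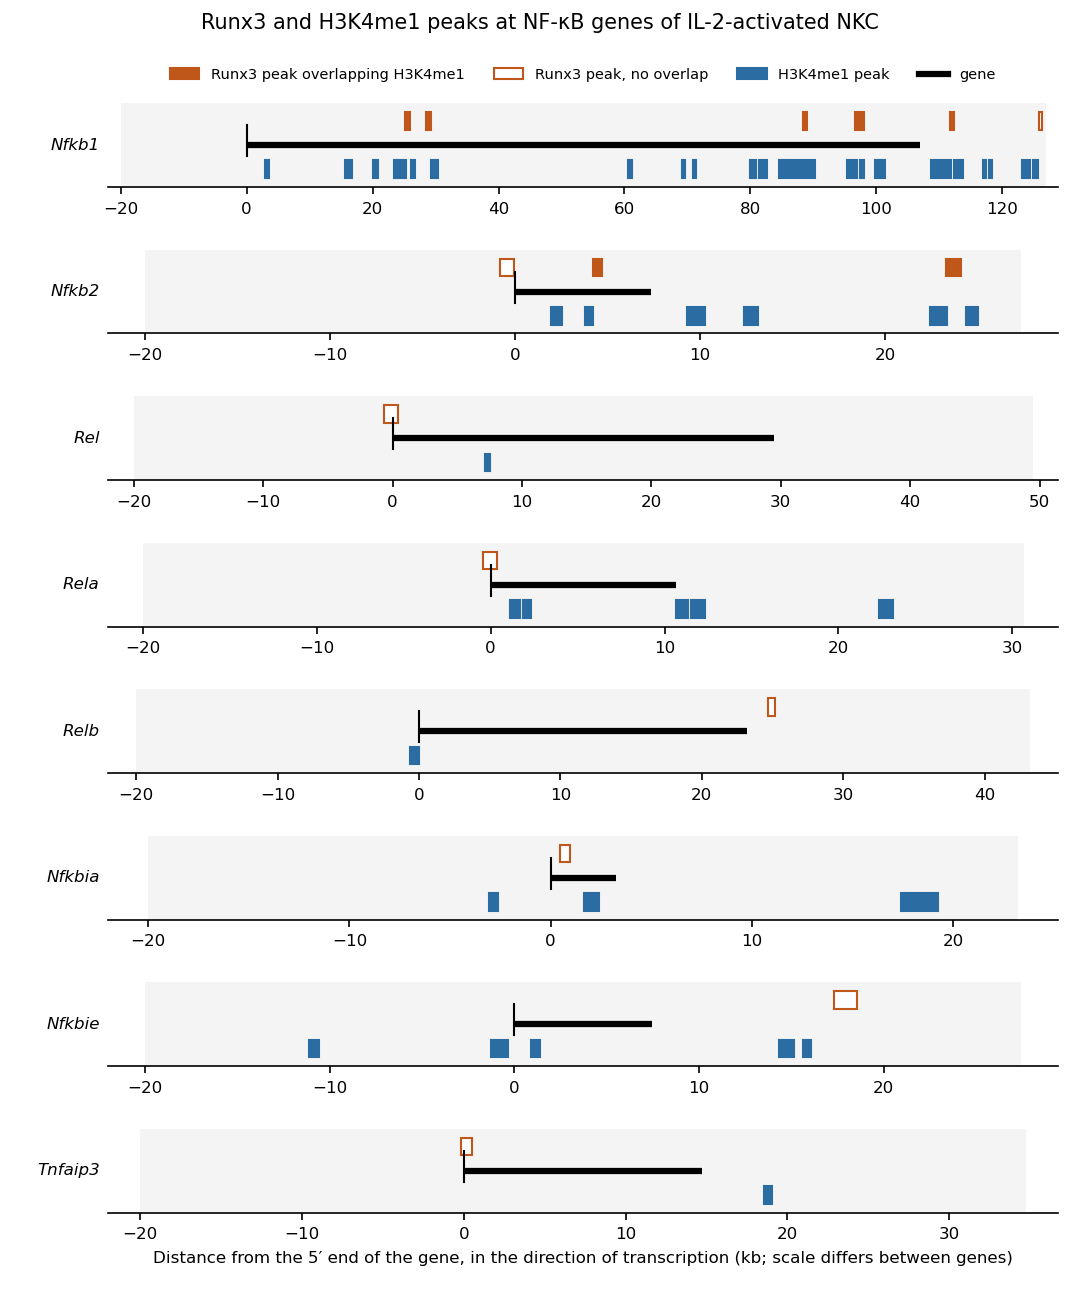
Map of each gene with its 20 kb flanks (grey), drawn to scale by distance in kb from the gene's 5′ end (x axis, different for each gene), with Runx3 peaks above and H3K4me1 peaks below the gene. Runx3 peaks at Nfkb1 sit within or beside runs of H3K4me1 inside and past the gene, whereas those of Nfkb2, Rel, Rela, Nfkbia and Tnfaip3 include an open box at the 5′ end.

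Nfkb2 encodes p100, the precursor of p52 in the non-canonical pathway, and lies at chr19:46379227-46386580 on the plus strand. Its 3 Runx3 peaks lay upstream, within and downstream of the gene. The first was centred 457 bp upstream of the 5′ end, held 3 RUNX matches and had its next H3K4me1 peak 1994 bp away. The second was centred 4464 bp into the gene, in a coding exon, and touched H3K4me1 by 16 bp (3.24% of the peak). The third was centred 23689 bp downstream, 242 bp from the start of Fbxl15, and touched H3K4me1 by 71 bp (8.56%). Neither of these overlaps reached the centre of the Runx3 peak. The 6 H3K4me1 peaks, 450 to 947 bp wide, lay within the gene in 2 cases and downstream in 4.

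The remaining subunits had 1 Runx3 peak each. Rel encodes c-Rel, a subunit with a transactivation domain that is prominent in lymphocytes, and lies at chr11:23641514-23670970 on the minus strand. Its Runx3 peak was 1146 bp wide and centred 127 bp upstream of the 5′ end, and the lone H3K4me1 peak of the window, 358 bp wide, lay in an intron 7169 bp away from that end. Rela, which encodes p65, lies at chr19:5637483-5648130 on the plus strand. Its Runx3 peak was centred 42 bp upstream of the 5′ end and held 4 RUNX matches, and the nearest of its 5 H3K4me1 peaks began 742 bp beyond the Runx3 peak. Relb, the usual partner of p52, lies at chr7:20191566-20214787 on the minus strand and showed the opposite order of marks. An H3K4me1 peak of 629 bp ended 14 bp upstream of its 5′ end, and no Runx3 peak was listed there. The Runx3 peak counted for Relb lay 24907 bp from the 5′ end, past the end of the gene and 63 bp upstream of the start of Clasrp, and by the nearest start it belongs to Clasrp.

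Of the IκB genes, Nfkbia encodes IκBα, the inhibitor that NF-κB rapidly restores after activation, and lies at chr12:56590398-56593634 on the minus strand. Its Runx3 peak was centred 715 bp downstream of the 5′ end in an intron, had a GC content of 72.1% and did not overlap H3K4me1. The nearest H3K4me1 peak lay 657 bp from it, and the 4 H3K4me1 peaks of the window were divided into 1 upstream, 1 in the gene and 2 centred 17904 and 18868 bp downstream of the 5′ end. Nfkbie encodes IκBε and lies at chr17:45692665-45700118 on the plus strand. No Runx3 peak lay at its start, although an H3K4me1 peak was found 363 bp upstream of it. The Runx3 peak of its window was 1220 bp wide and lay 17939 bp away, 384 bp upstream of the start of Hsp90ab1, an HSP90 chaperone gene. The Runx3 peaks counted for Relb and Nfkbie thus both lay at the promoter of a neighbouring gene.

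Tnfaip3 encodes A20, a ubiquitin-editing enzyme that limits signalling to the IκB kinase, and lies at chr10:18720716-18735463 on the minus strand. Its Runx3 peak was 638 bp wide and centred 153 bp downstream of the outermost 5′ end and 94 bp from another annotated start. The lone H3K4me1 peak of the window was 507 bp wide and lay 18553 bp from the 5′ end, past the end of the gene. With flanks of 50 kb, 2 more Runx3 peaks came into the Tnfaip3 window, centred 46.9 kb upstream and 50.7 kb downstream of the 5′ end, which lay 213 and 410 bp from H3K4me1 peaks without overlap. The wider flanks also added 1 Runx3 peak for Nfkbia, centred 27.0 kb downstream and 271 bp from H3K4me1. For these 3 peaks the nearest gene start was that of the NF-κB gene. Single peaks were also added for Nfkb2 and Relb, nearer to the starts of Tmem180 and Clptm1.

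A Runx3 peak centred within 1 kb of an annotated transcript start of the gene was found for 6 of the 8 genes, where 13.3% of protein-coding genes had one. Nfkb1 was among them through its internal starts. Counting the outermost 5′ end alone, it was found for 5 of 8, Nfkb2, Rel, Rela, Nfkbia and Tnfaip3, where 11.3% of protein-coding genes had one. None of these 5 peaks overlapped H3K4me1, and 4 of the 5 held a RUNX motif, Nfkbia being the exception. Over the whole list, 18.7% of Runx3 peaks within 1 kb of a protein-coding start overlapped H3K4me1 and 57.5% of the others did. For the NF-κB genes the figures were 3 of 10 peaks near any protein-coding start and 4 of 5 of the others. Together 7 of 15 peaks overlapped H3K4me1 (46.7%, exact 95% interval 21.3 to 73.4%), where 48.4% of all Runx3 peaks did. With the centre of the Runx3 peak required inside H3K4me1, these shares were 1 of 15 (6.67%, interval 0.169 to 31.9%) and 28.2%. The intervals cover counting error only, and the peaks of a locus are not independent.

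RUNX motifs were present in 12 of the 15 peaks (80.0%, exact 95% interval 51.9 to 95.7%), where 96.0% of all Runx3 peaks had one. The peaks without a match were the Nfkb1 peak at 112024 bp, the peak beside Clasrp and the Nfkbia peak. Absence of the letters says nothing about whether Runx3 was recruited there. The variants with a CpG, TGCGGT and TGCGGC, were found in 10 of 15 peaks (66.7%, interval 38.4 to 88.2%) against 33.6% of all peaks. The variants TGTGGT and TGTGGC were found in 9 of 15 (60.0%, interval 32.3 to 83.7%) against 89.0%. The 15 peaks had a median GC content of 60.3%, against 49.6% over all peaks, and 10 of them lay within 1 kb of a protein-coding start. Among peaks near a start the share with a CpG variant was 7 of 10 here and 69.0% in the whole list.

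Motif content differed between the peaks of the family. The Nfkb1 intron peak at 28870 bp, the lowest in GC content at 41.4%, held 5 RUNX matches, 4 of them without CpG, and 1 AP-1 match. The Nfkb1 peak at 112024 bp held 2 AP-1 matches in place of RUNX, printed above. AP-1, the Fos and Jun dimer, had a match in 5 of 15 peaks (33.3%, interval 11.8 to 61.6%) against 26.2% of all peaks. ETS matches (NGGAAN with C or A at the first N and A or G at the last, on either strand) were found in all 15 peaks, where 91.4% of all peaks had one.

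Matches to the κB consensus were found in 3 of the 15 peaks (exact 95% interval 4.33 to 48.1%), those at the starts of Rel, Nfkbia and Tnfaip3, against 9.88% of all Runx3 peaks. Among peaks within 1 kb of a protein-coding start the shares were 3 of 10 (interval 6.67 to 65.2%) and 13.6%. Each of these 3 peaks held 2 distinct κB sites after overlapping matches were merged. A κB match within the central 200 bp was found in 3 of 15 peaks, against 2.67% of all Runx3 peaks, and in 3 of the 10 near a start, against 3.42%. A RUNX match in the central 200 bp was found in 9 of 15 peaks, against 76.9% of all Runx3 peaks. Near a start these shares were 5 of 10 and 68.4%. In the Rel peak a RUNX match and a κB match lie on either side of the centre. The Tnfaip3 peak holds a κB match centred 8 bp and another 121 bp upstream of the start of an annotated coding transcript, while its RUNX match lies in the untranslated first exon.

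**Figure D4:**
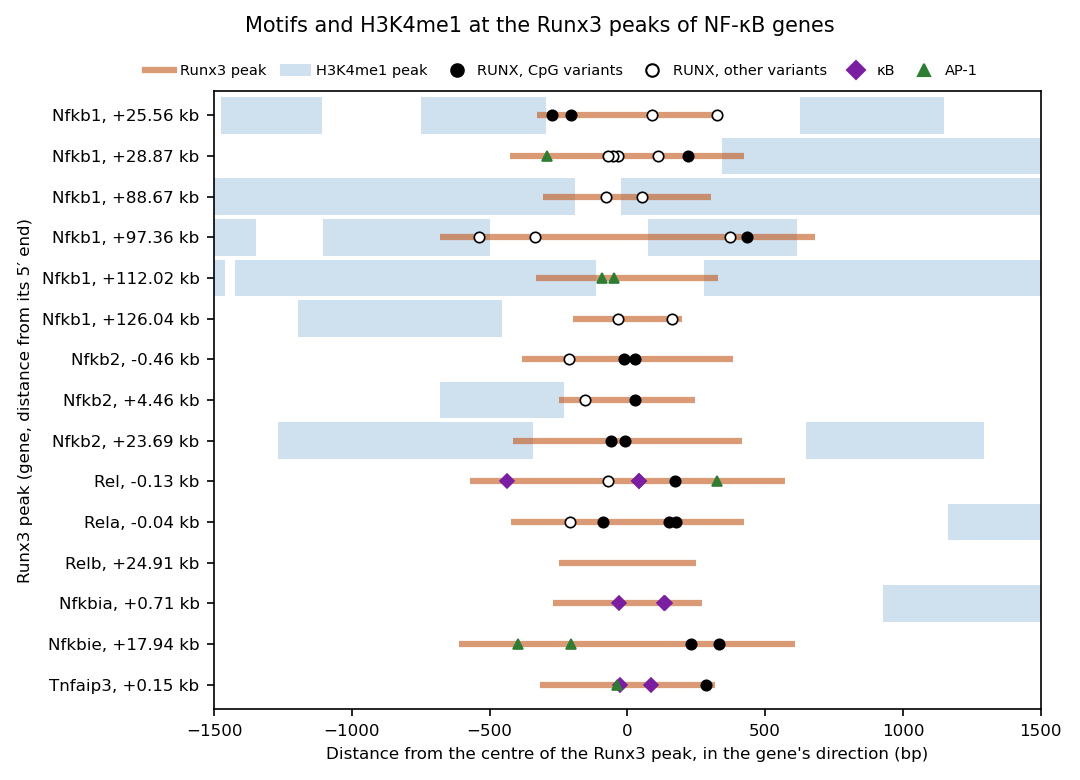
The 15 Runx3 peaks aligned at their centres in the direction of the gene (x axis, bp), with H3K4me1 peaks as blue bands and RUNX, κB and AP-1 matches as symbols. Purple κB symbols appear at Rel, Nfkbia and Tnfaip3, where no blue band reaches the Runx3 peak, and the blue bands that meet a Runx3 peak belong to Nfkb1 and Nfkb2.

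κB matches were also searched for in the promoters. In the 250 bases before and 50 bases after the 5′ end, 6 of the 8 genes had a κB match, where 4.73% of 22345 protein-coding promoters did. RUNX motifs were found in 3 of 8 of these promoters against 45.3%, AP-1 in 1 of 8 against 4.42% and ETS in 4 of 8 against 65.5%. The 6 promoters with a κB match had a GC content of 60.3% (Nfkbie) to 75.3% (Rel). Those of Rela and Tnfaip3, without a match, had 69.0% and 48.0%. Shares among promoters of like GC content were not computed. The κB match nearest the 5′ end of each gene is shown with its flanking bases, the match in capitals, in the direction of the gene.
Nfkb1 promoter (chr3:135354461-135354490, minus strand): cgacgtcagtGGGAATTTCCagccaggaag
Nfkb2 promoter (chr19:46379206-46379235, plus strand): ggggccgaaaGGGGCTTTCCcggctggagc
Rel promoter (chr11:23671041-23671070, minus strand): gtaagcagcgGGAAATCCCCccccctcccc
Relb promoter (chr7:20214792-20214821, minus strand): cggcggcgccGGGGAATTCCgccgccccgc
Nfkbia promoter (chr12:56593644-56593673, minus strand): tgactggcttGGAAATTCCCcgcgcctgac
Nfkbie promoter (chr17:45692533-45692562, plus strand): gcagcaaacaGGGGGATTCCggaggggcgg
Of the κB sites in these promoters, the Rel site lay in a Runx3 peak. The Nfkb2 sites lay 36 and 64 bp outside the upstream Runx3 peak and the Nfkbia site 465 bp from the intronic peak. The sites of Nfkbie, Relb and Nfkb1 were farther away, at 17443 bp for Nfkbie, 24672 and 24745 bp for Relb and 25192 bp for Nfkb1. When the starts of all annotated transcripts were used, an alternative chosen after seeing the data, Tnfaip3 joined them and 7 of 8 genes had a κB match, against 9.36% of all protein-coding genes.

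The other genes of the pathway were counted in the same way. Of 34 genes, 24 had a Runx3 peak, where 41.1% of protein-coding genes did, and 28 an H3K4me1 peak, where 51.1% did. A Runx3 peak that overlapped H3K4me1 was found at 17 of 34, against 20.5%, and one near a start at 14 of 34, against 13.3%. All 4 of the other IκB genes had both kinds of peak, and Nfkbid, which encodes the nuclear IκBNS, had the most with 4 Runx3 and 13 H3K4me1 peaks. The kinases and their partners had Runx3 peaks at 5 of 10 genes, a share near that of all genes, and never more than 1: Ikbkb and Tbk1, encoding kinases, Map3k14, encoding the kinase NIK, Map3k7, encoding TAK1, and its partner Tab2. Of the adaptors, 10 of 12 had Runx3 peaks, led by Traf1 with 4 Runx3 and 17 H3K4me1 peaks and Traf5 with 4 and 6. Of the ubiquitin-editing genes, 5 of 8 had Runx3 peaks, led by Tnip3 with 3 Runx3 and 3 H3K4me1 peaks and Tax1bp1 with 3 and 6, both encoding A20-binding proteins. The 4 genes with neither kind of peak were Ikbkg, Tab3, Traf6 and Rnf11. Ikbkg and Tab3 are on chromosome X, where 7.30% of 932 protein-coding genes had a Runx3 peak. By number, none of the 34 reached the 6 Runx3 or the 31 H3K4me1 peaks of Nfkb1, whose window spanned 147 kb. The windows of Nfkbid and Traf1 were shorter, at 47.0 and 60.0 kb. Per kb, both of these genes had more Runx3 and more H3K4me1 peaks than Nfkb1.

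The absence of a peak can be read only where reads align. Of the 40-mers in the 8 windows, between 95.7% (Rela) and 99.0% (Tnfaip3) occur once in the genome, and within 500 bp of each 5′ end 100% do. This includes the 5′ ends of Nfkb1, Relb and Nfkbie, where no Runx3 peak was listed. Whether the signal there fell below the threshold of the peak caller was not tested, since the lists hold no scores.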

How the data were processed

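Runx3 and H3K4me1 ChIP-seq of IL-2-activated NKC was analysed from the deposited peak lists. Per the labels and the study's methods, reads of 40 bp were placed on mm9 by ELAND, reads that aligned more than once were dropped, and MACS compared the joined Runx3 reads, or the H3K4me1 reads, with NIS. The authors' deposited columns give where a peak starts and ends, in bp. Heights, scores and p-values are not in them, and 0 columns of single libraries were left out.

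Starts, counted from 0 in the lists, are given from 1. The annotation was GENCODE M1, with the genome of that build. Places refer to peak centres. The members and lists were chosen with earlier results of these data known. All 8 members are named, and of each other list the gene with the most Runx3 peaks (ties included) and every gene with neither peak. RUNX, ETS, AP-1 and κB motifs were searched on both strands, and palindromic matches were counted once. Shares have exact (Clopper-Pearson) 95% intervals. No test was run, since the design has 1 condition. The count of peaks per gene window and the RUNX motif search were tested on simulated data. The searches for other motifs and the overlap of Runx3 with H3K4me1 were not tested in this way. Alternatives were other flanks, nearest-start assignment, wider or joined peaks, other overlap and promoter rules, and a looser κB motif. Versions were matplotlib 3.10.9, numba 0.67.0, pysam 0.24.0, scipy 1.17.1, numpy 2.4.6 and python 3.11.15.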

Additional observations from a re-analysis of the deposited data

How the results depend on the processing

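The counts of genes and the shares kept to within 1.5 times, or within their intervals, under most alternatives: 44 of 56 planned values did so, and 12 did not. Some of these could not move, such as the count of 8 genes with a peak under wider flanks or joined peaks. Shares were judged against wide intervals, such as 21.3 to 73.4% for the overlap with H3K4me1. With peaks at least as wide as the median of their list, a stand-in for a stricter threshold, 5 genes had a Runx3 peak and 5 an H3K4me1 peak, 7 Runx3 and 28 H3K4me1 peaks remained, the RUNX share was 100% and 14 other pathway genes had a Runx3 peak. Within gene bodies alone there were 9 Runx3 and 30 H3K4me1 peaks, and Relb and Nfkbie had 0 Runx3 peaks. With flanks of 50 kb there were 83 H3K4me1 peaks, and 33 when peaks less than 1 kb apart were joined. The share of Runx3 peaks overlapping H3K4me1 was 13.3% when 50% of the Runx3 peak had to be covered and 6.67% when its centre had to lie inside. Of 96 values for single genes, 38 moved and 58 did not. The count of genes with a κB match in the promoter was 6, and 7 with the starts of all transcripts.

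No paired analysis was possible because the lists hold no values per library, although the Runx3 and NIS libraries share replicate numbers. Leaving out a library and raising the authors' threshold were not run for the same reason.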
